A study of Homo sapiens with 2 samples.

Results

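The mitochondrial ribosomal proteins are the nuclear-encoded proteins of the ribosome inside mitochondria, and their genes carry the symbols MRPL for the large subunit and MRPS for the small subunit. Members were taken by symbol from the deposited FPKM table, leaving out antisense and pseudogene symbols, which gave 76 genes of the 40205 in the table. There were 47 large subunit and 29 small subunit genes. All RNA came from RKO, a long-established colorectal cancer line of human origin, harvested 2 days after the siRNA was introduced. For the hnRNPK siRNA library the cells received an siRNA targeting the RNA-binding protein hnRNPK, and its genotype label reads hnRNPK-/- although the title and protocol describe siRNA. The control siRNA library came from RKO cells transfected with the siRNA titled siNC and labelled as control genotype. Each group has 1 library, so no difference below has a replicate check and no p-value is given.

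Mitochondrial ribosomes translate the few mRNAs that mitochondrial DNA still encodes, all of them for subunits of the respiratory chain and the ATP synthase. Their rRNAs come from mitochondrial DNA, whereas all their proteins are made in the cytosol and imported. Many of these proteins have a counterpart in bacterial ribosomes, and the others were added during the evolution of mitochondria. Within 1 ribosome nearly all of them are present as a single copy.

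Values are FPKM, fragments scaled by gene length and library size, as the authors deposited them. The whole reads behind the values were worked out from the ratios between the columns, and the smallest library totals that fit were 28550823 reads for hnRNPK siRNA and 25729856 reads for control siRNA. Each ratio is FPKM in hnRNPK siRNA over FPKM in control siRNA, followed by its exact 95% Clopper-Pearson interval from those reads, which covers counting error only and not the variation between cultures. HNRNPK itself, the targeted gene, stood at 61.5 FPKM in the hnRNPK siRNA library and 338.0 FPKM in the control siRNA library, a ratio of 0.182. Of the epithelial markers, KRT18, KRT8, EPCAM and CDX2 were detected above 1 FPKM, whereas KRT19, CDH1 and VIL1 were listed at 0 and CDH17 rested on 1 read. The blood, stromal and neuron or muscle markers summed to at most 0.0434 FPKM per list in the hnRNPK siRNA library and 0.0256 FPKM in the control siRNA library, and PTPRC, HBB, DCN and PECAM1 were at 0 in both.

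All 76 members had a mean FPKM of at least 1 over the libraries, the minimum used for every gene counted here, and 11454 genes of the table met it. The mRNA levels of the members spanned 23.2-fold by their mean, although most of the proteins are used in equal numbers. In the hnRNPK siRNA library they ran between 6.34 and 170.0 FPKM with a median of 36.2, and in the control siRNA library between 6.77 and 158 FPKM with a median of 34.9. The order of the levels was much the same in the libraries (Spearman rho 0.957 over 76 genes, which share both libraries and are not independent). The summed level of all members was 3776 FPKM in hnRNPK siRNA and 3537 FPKM in control siRNA, or 0.693% of all FPKM in hnRNPK siRNA and 0.700% in control siRNA. In such bulk RNA, fewer cells of a kind and less RNA per cell cannot be told apart.

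The most abundant member was MRPS15, the counterpart of bacterial S15, at 170.0 FPKM in hnRNPK siRNA and 151 FPKM in control siRNA, a ratio of 1.13 (1.08 to 1.18). MRPL13, the counterpart of bacterial L13, was at 152 FPKM in hnRNPK siRNA and 151 FPKM in control siRNA, and its interval of 0.970 to 1.05 includes 1. MRPL32, a zinc-binding protein that the inner membrane protease AFG3L2 matures, was at 161 FPKM in hnRNPK siRNA and 131 FPKM in control siRNA, a ratio of 1.23 (1.17 to 1.28). MRPL24, at the exit of the peptide tunnel, was at 153 FPKM in hnRNPK siRNA and 139 FPKM in control siRNA. Thus 4 of the 5 most abundant members lay within 1.25-fold of the control level, and the remaining one, MRPL16, is described among the lowest ratios. At the other end of the scale, MRPL55, MRPL54, MRPS12, MRPS24, MRPS25, MRPS36 and MRPL23 were all below 10 FPKM on average.

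**Figure D1:**
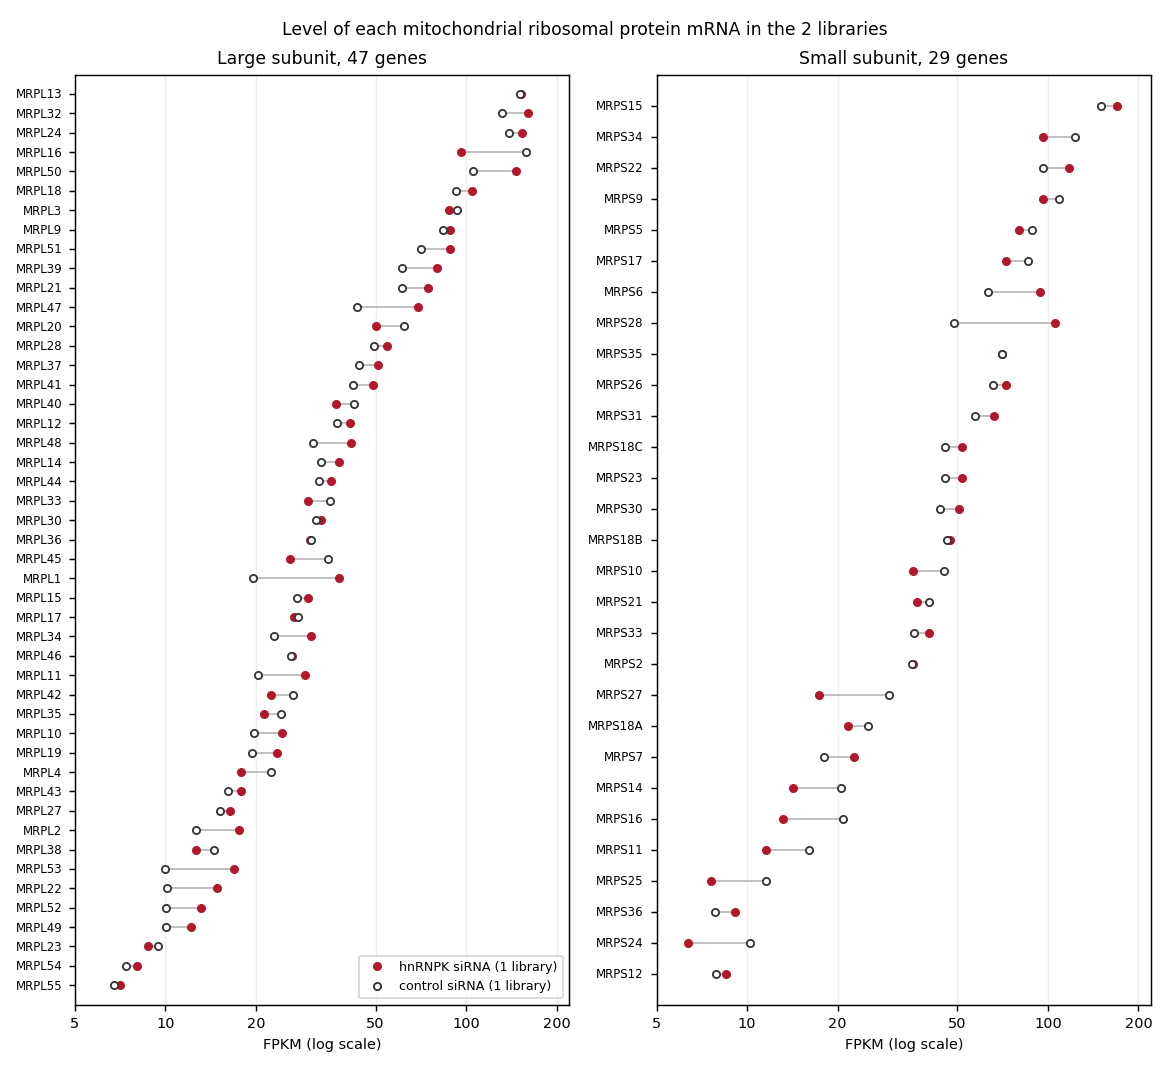
FPKM of every member (log axis), with filled points for the hnRNPK siRNA library and open points for the control siRNA library, for the 47 large subunit genes on the left and the 29 small subunit genes on the right. Levels spread over 23.2-fold between genes, while 51 of the 76 genes lie within 1.25-fold of their control level.

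Most members differed little between the libraries, and by their median log2 ratio they stood slightly higher than other genes in the hnRNPK siRNA library. The median log2 ratio, taken on FPKM + 1 so that low values weigh less, was 0.12 over the members and −0.15 over all 11454 genes, a distance of 0.27. Of the 76 members, 55 (72.4%) lay above the median of all genes. On that scale 4 members were at least 1.5-fold higher in hnRNPK siRNA, against 3.67% of all genes, and 4 were at least 1.5-fold lower, against 14.7% of all genes. Only MRPS28 was at least 2-fold higher, where 0.777% of all genes were, and no member was at least 2-fold lower, where 3.55% of all genes were. The share past 1.5-fold upward was thus 5.26% of members as deposited. After centring on the median of all genes it was 11.8% of members (9 genes), against 7.22% of all genes, and with TMM factors 11.8%, against 8.26%. By counting error alone, the ratio's interval lay above 1 for 38 members, below 1 for 21 and across 1 for 17. Over all genes with recovered reads it lay above 1 for 20.8% and below 1 for 48.4%. The members' median was 1548 reads in hnRNPK siRNA and 1318 reads in control siRNA.

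Genes of like level and length also stood above the median of all genes, by less. Among 457 other genes whose mean FPKM and length both fell between the members' lower and upper quartiles, the median log2 ratio was −0.01 and 64.1% exceeded the all-gene median. Set against these genes, the members' distance was 0.13 rather than 0.27. Their interval lay above 1 for 35.2% and below 1 for 39.2%.

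The MRPL genes stood higher than the MRPS genes by their medians, though the groups overlapped over most of their range. The median log2 ratio was 0.14 for the large subunit (quartiles −0.03 and 0.30) and 0.01 for the small subunit (quartiles −0.33 and 0.18), a difference of 0.13. The interval lay above 1 for 27 of 47 large subunit genes (57.4%) and below 1 for 8 (17.0%). For the small subunit it lay above 1 for 11 of 29 genes (37.9%) and below 1 for 13 (44.8%). Of all genes 20.8% lay above 1 and 48.4% below. Of the genes of like level and length 35.2% lay above and 39.2% below, near the shares of the small subunit. In the order of ratios, 8 of the 10 highest members were MRPL genes, which make up 47 of the 76 members. Of the 10 lowest, 8 were MRPS genes, which make up 29 of the 76. The summed FPKM of the MRPL genes was 2252 in hnRNPK siRNA and 2073 in control siRNA, a ratio of 1.09. That of the MRPS genes was 1524 in hnRNPK siRNA and 1464 in control siRNA, a ratio of 1.04. Over all 11454 genes the ratio of summed FPKM was 1.08. By sums the MRPL genes thus lay near all genes and the MRPS genes below them. Both lay above the genes of like level and length, whose ratio of summed FPKM was 0.975. The sum over all genes holds the cytosolic ribosomal proteins, whose ratios of summed FPKM were 1.45 (large subunit) and 1.41 (small subunit). With 1 library per group, the difference of 0.13 has no error estimate beyond these quartiles.

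**Figure D2:**
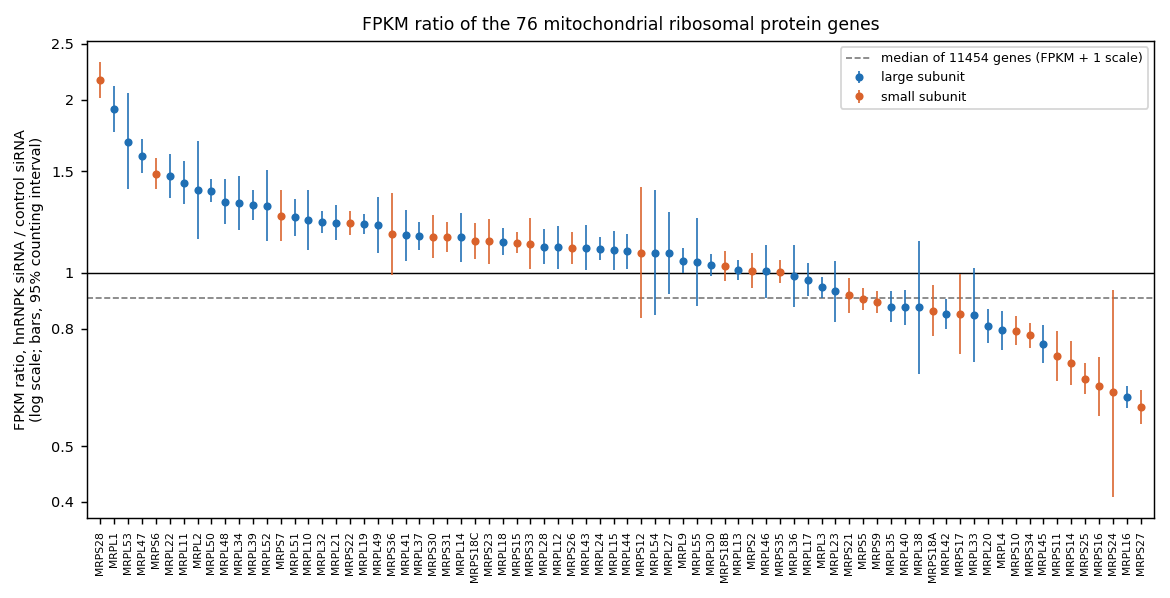
FPKM ratio of hnRNPK siRNA over control siRNA (log axis) for each of the 76 genes in falling order, in blue for the large and orange for the small subunit, with exact 95% counting intervals as bars, a solid line at 1 and a dashed line at the median of 11454 genes. The ratios run between 2.16 for MRPS28 and 0.585 for MRPS27, with MRPS genes crowding the low end.

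The highest ratios belonged to proteins from several parts of the ribosome. MRPS28, the small subunit counterpart of bacterial S1, was at 105 FPKM in hnRNPK siRNA and 48.8 FPKM in control siRNA, resting on 2632 and 1098 reads. Its ratio of 2.16 (2.01 to 2.32) was the highest of the family. MRPL1, which forms the mobile L1 stalk beside the exit of spent tRNAs, was at 37.7 FPKM in hnRNPK siRNA and 19.6 FPKM in control siRNA, a ratio of 1.92 (1.76 to 2.11). MRPL53, a protein without bacterial counterpart near the stalk that recruits translation factors, was at 16.8 FPKM in hnRNPK siRNA and 9.97 FPKM in control siRNA, a ratio of 1.69 (1.40 to 2.05). MRPL47, the counterpart of bacterial L29 at the tunnel exit, was at 69.2 FPKM in hnRNPK siRNA and 43.4 FPKM in control siRNA, a ratio of 1.59 (1.49 to 1.71). These 4 genes are the ones past 1.5-fold. In GENCODE 29 an exon of MRPL47 overlaps ACTL6A on the other strand, which had a ratio of 1.41 (1.35 to 1.47), and no source used here says whether the counting separated them.

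The next of the 10 highest lay between 1.33 and 1.49. MRPS6, the counterpart of bacterial S6, was at 94.0 FPKM in hnRNPK siRNA and 63.2 FPKM in control siRNA. Its exons overlap those of SLC5A3 on the same strand in GENCODE 29, so reads of the pair may not be separable, and SLC5A3 had a ratio of 1.27 (1.20 to 1.34). MRPL22, which lines the peptide tunnel, was at 14.9 FPKM in hnRNPK siRNA and 10.1 FPKM in control siRNA. MRPL11, at the base of the factor-binding stalk, was at 29.1 FPKM in hnRNPK siRNA and 20.3 FPKM in control siRNA. MRPL2, of the peptidyl transferase region where peptide bonds form, was at 17.6 FPKM in hnRNPK siRNA and 12.6 FPKM in control siRNA, with a wide interval of 1.15 to 1.70. MRPL50 and MRPL48, both without bacterial counterparts, had ratios of 1.39 (1.33 to 1.46) and 1.33 (1.21 to 1.45).

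The lowest ratios were mostly those of small subunit proteins. MRPS27, a pentatricopeptide repeat protein of the small subunit, was at 17.3 FPKM in hnRNPK siRNA and 29.7 FPKM in control siRNA, a ratio of 0.585 (0.546 to 0.626). MRPL16, a large subunit protein beside the peptidyl transferase centre, was the most abundant member in the control siRNA library at 158 FPKM and stood at 95.8 FPKM in hnRNPK siRNA. Its ratio of 0.608 (0.581 to 0.636) rests on 3233 reads in hnRNPK siRNA and 4792 reads in control siRNA. MRPS16, the counterpart of bacterial S16, was at 13.2 FPKM in hnRNPK siRNA and 20.8 FPKM in control siRNA, a ratio of 0.635 (0.565 to 0.713). DNAJC9, whose exons overlap MRPS16 on the same strand, had 0.669 (0.629 to 0.711). MRPS24, the counterpart of bacterial S3 at the mRNA entry, was at 6.34 FPKM in hnRNPK siRNA and 10.2 FPKM in control siRNA, from 42 and 61 reads by the smallest fit. The table also lists the read-through gene URGCP-MRPS24, whose exons overlap its own and which had a ratio of 0.661 (0.458 to 0.948), so the MRPS24 value of 0.620 (0.409 to 0.934) is uncertain.

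MRPS25, which has no bacterial counterpart, was at 7.57 FPKM in hnRNPK siRNA and 11.6 FPKM in control siRNA, a ratio of 0.655 (0.616 to 0.697). MRPS14 and MRPS11, the counterparts of bacterial S14 in the head and S11 on the platform of the small subunit, had ratios of 0.696 (0.638 to 0.760) and 0.718 (0.649 to 0.794). MRPL45, which anchors the ribosome to the inner membrane beside the tunnel exit, was at 26.0 FPKM in hnRNPK siRNA and 34.6 FPKM in control siRNA, a ratio of 0.752 (0.697 to 0.810). MRPS34 was at 96.0 FPKM in hnRNPK siRNA and 123 FPKM in control siRNA, and MRPS10 at 35.6 FPKM in hnRNPK siRNA and 45.0 FPKM in control siRNA. All 10 of these lowest members, chosen by their ratios, had intervals below 1, where 48.4% of all genes did. After the values are centred on the median of all genes, 1 member (1.32%) was at least 1.5-fold lower, against 8.97% of all genes, where 4 members were as deposited.

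The other 56 members had ratios between 0.794 and 1.32. MRPS22, a small subunit protein without bacterial counterpart, was at 118 FPKM in hnRNPK siRNA and 96.6 FPKM in control siRNA, a ratio of 1.22 (1.16 to 1.28). MRPL12, the counterpart of the bacterial L7/L12 protein that binds translation factors, had a ratio of 1.11 (1.02 to 1.21), and MRPL44, which has a ribonuclease III fold, 1.09 (1.02 to 1.17). MRPS12, of the decoding centre, was at 8.51 FPKM in hnRNPK siRNA and 7.86 FPKM in control siRNA, with an interval of 0.834 to 1.41 that includes 1. MRPL3, the counterpart of bacterial L3, was at 87.8 FPKM in hnRNPK siRNA and 93.0 FPKM in control siRNA, a ratio of 0.944 (0.905 to 0.985) whose direction turns after centring or with TMM factors. MRPS36, at 9.15 FPKM in hnRNPK siRNA and 7.84 FPKM in control siRNA, is named as a ribosomal protein but is now known as a subunit of the alpha-ketoglutarate dehydrogenase complex.

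The 3 paralogs of bacterial S18 did not share a ratio. MRPS18C, which takes the place of S18 in the small subunit, was at 51.8 FPKM in hnRNPK siRNA and 45.6 FPKM in control siRNA, a ratio of 1.14 (1.06 to 1.22). MRPS18B, elsewhere in the small subunit, was at 47.4 FPKM in hnRNPK siRNA and 46.1 FPKM in control siRNA, with an interval of 0.967 to 1.09. MRPS18A, which despite its name sits in the large subunit, was at 21.7 FPKM in hnRNPK siRNA and 25.2 FPKM in control siRNA, a ratio of 0.859 (0.775 to 0.952). The intervals of MRPS18A and MRPS18C do not overlap, by counting error alone. MRPS30 is another large subunit protein with a small subunit symbol, and its ratio was 1.16 (1.06 to 1.26). With MRPS30 and MRPS18A counted as large and MRPS36 left out, the medians were 0.14 for 49 large subunit genes and 0.01 for 26 small subunit genes.

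Grouped by place in the ribosome, the proteins of the factor-binding stalk (MRPL10, MRPL11, MRPL12, MRPL53 and MRPL54) all had ratios above 1, and the interval lay above 1 for 4 of these 5. The L1 stalk and its base (MRPL1, MRPL37 and MRPS30) had 3 of 3 intervals above 1. In the peptidyl transferase region 3 of 4 intervals lay below 1, those of MRPL3, MRPL4 and MRPL16, while MRPL2 lay above. Of all genes 48.4% lay below 1, and the log2 ratio of MRPL3 is positive under either rescaling. Of the 8 proteins at the tunnel exit, MRPL45 was the 1 whose interval lay below 1, and 5 lay above. Of the 8 in the central protuberance, where the subunit contacts the other at its top, 3 intervals lay above 1 and 1, that of MRPL40, below. Of the 4 small subunit proteins of the mRNA channel and decoding site, the interval of MRPS28 lay above 1, those of MRPS5 and MRPS24 below, and that of MRPS12 across 1. For comparison, the interval lay above 1 for 38 of all 76 members. It did so for 20.8% of all genes and 35.2% of the genes of like level and length. The central protuberance, at 37.5%, lay near the share of the genes of like level and length. The groups by place hold 3 to 8 genes each and were set up with earlier results of these data known.

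Most of the proteins divide by whether bacteria have a counterpart. The median log2 ratio was 0.09 for the 46 proteins with a counterpart and 0.14 for the 29 without, a difference of −0.06. Taken on means in place of medians, the difference was −0.0030. Within the small subunit the medians were −0.14 for 16 genes with a counterpart and 0.09 for 12 without. Within the large subunit they were 0.13 for 30 genes and 0.21 for 17.

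Shorter genes tended to have higher ratios, among the members and among all genes. The Spearman rho between log2 ratio and the length recovered with the reads was −0.28 over the 76 members and −0.23 over all genes. The members' median length was 1182 bases, against 2575 bases for all genes. Recovered lengths can be whole fractions of the true ones, and 4 members (MRPS17, MRPS24, MRPL33 and MRPL38) came out at 315 bases or less. Longer recovered lengths can be fractions too. Without these 4, a choice made after seeing the values, rho was −0.44 over 72 members. The 10 highest members had a median length of 1057 bases and the 10 lowest 1916 bases, and the medians of the large and small subunit genes were 1171 and 1317 bases. The part that length has in these ratios was not tested beyond the comparison with genes of like level and length.

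**Figure D3:**
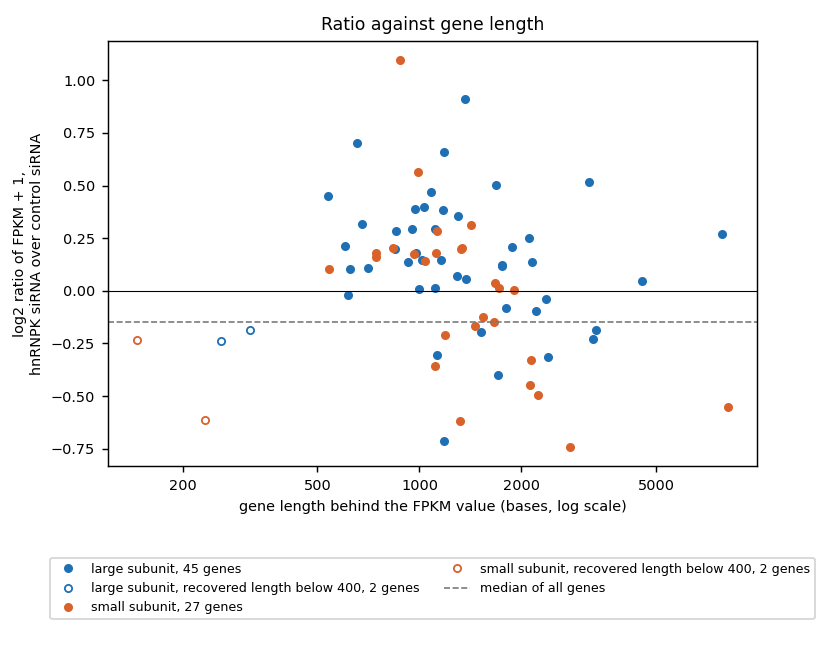
Log2 ratio of FPKM + 1, hnRNPK siRNA over control siRNA, against the gene length behind each FPKM value (log axis), in blue for large and orange for small subunit genes, with open points for the 4 genes recovered at 315 bases or less and a dashed line at the median of all genes. The Spearman rho is −0.28 over all 76 genes, −0.20 within the large subunit and −0.41 within the small subunit. Leaving out the open points, a choice made after seeing the values, it is −0.44 (n = 72).

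The start regions of the genes carry sequence words that nuclear regulators of mitochondrial genes bind. RefSeq windows of 250 bases before to 50 bases after the annotated start (GRCh38.p14) were found for 67 members; MRPL10, MRPL13, MRPL15, MRPL2, MRPL21, MRPL23, MRPL35, MRPS28 and MRPS36 had no entry. The word CCGGAAG, bound by GABPA and other ETS factors, was found on either strand in 29 of the 67 (43.3%), against 24.7% of the 7957 expressed genes (those at or above the minimum level) that have a window, and 12.2% of all 27305 genes with a window. The word AAGATGGC, bound by YY1, was found in 21 members (31.3%), against 7.40% of those 7957 genes and 3.52% of all. Of its 24 occurrences 16 began after the annotated start, counting each window of genes with several starts. The palindromic NRF1 word was in 8 members (11.9%), against 14.9% of expressed genes, and the E-box CACGTG in 9 (13.4%), against 13.2%. The CCAAT box was in 23 (34.3%), against 44.1% of expressed genes. CCGGAAG and AAGATGGC can share the letters AAG, and a match describes the letters, not a bound site.

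The median log2 ratio was 0.11 for members with CCGGAAG and 0.09 for those without. It was 0.04 for members with AAGATGGC and 0.13 for those without, and 0.01 for the 8 members with the NRF1 word and 0.12 for those without. For the E-box it was 0.18 for members with the word and 0.10 for those without, and for CCAAT 0.16 and 0.05. These differences have no error estimate. To let the letters be read, windows of carriers from both ends of the order of ratios are given, 70 bases before to 30 bases from the start, 5′ to 3′ on the gene's own strand, with the GABPA, YY1 and NRF1 words in capitals. They are, among genes with 1 annotated start and the word inside the window, the 2 highest and 2 lowest ratios for CCGGAAG and then for AAGATGGC.
MRPL53 (chr2:74472651-74472750, minus strand): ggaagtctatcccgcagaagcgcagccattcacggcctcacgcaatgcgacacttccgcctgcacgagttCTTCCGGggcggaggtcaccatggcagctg
MRPL48 (chr11:73787804-73787903, plus strand): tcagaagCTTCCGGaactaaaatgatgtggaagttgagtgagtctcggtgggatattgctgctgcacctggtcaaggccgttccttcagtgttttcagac
MRPS16 (chr10:73252615-73252714, minus strand): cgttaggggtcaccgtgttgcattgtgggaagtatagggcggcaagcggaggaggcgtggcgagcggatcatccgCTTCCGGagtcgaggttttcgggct
MRPL16 (chr11:59810749-59810848, minus strand): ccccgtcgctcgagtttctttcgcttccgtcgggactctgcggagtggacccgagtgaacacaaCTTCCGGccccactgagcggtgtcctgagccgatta
MRPL52 (chr14:22829817-22829916, plus strand): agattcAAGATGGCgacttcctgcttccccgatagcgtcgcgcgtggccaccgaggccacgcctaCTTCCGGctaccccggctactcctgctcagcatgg
MRPS7 (chr17:75261809-75261908, plus strand): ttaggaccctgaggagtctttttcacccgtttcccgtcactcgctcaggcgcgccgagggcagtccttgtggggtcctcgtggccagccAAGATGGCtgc
MRPS24 (chr7:43869488-43869587, minus strand): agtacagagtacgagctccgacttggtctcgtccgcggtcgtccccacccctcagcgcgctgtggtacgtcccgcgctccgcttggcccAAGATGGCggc
MRPS27 (chr5:72320211-72320310, minus strand): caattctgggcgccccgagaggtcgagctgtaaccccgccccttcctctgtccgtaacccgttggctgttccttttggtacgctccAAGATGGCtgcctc

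CTTCCGG is CCGGAAG read on the other strand. MRPL53 (ratio 1.69) and MRPL16 (ratio 0.608) both have the ETS word close to the start, and MRPL52 has both words. In MRPS7 (ratio 1.26), MRPS24 and MRPS27 (ratio 0.585) the YY1 word lies 17 to 20 bases into the transcript.

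Several members share their start region with a neighbour transcribed the other way, and the neighbour's ratio was often different. In GENCODE 29, 16 members have a protein-coding neighbour that starts on the opposite strand within the 1000 bases before their own start. Both genes were measured in 10 such pairs. Head-to-head genes that overlap at their starts were left out of these counts. All 10 members were above the all-gene median, with MRPL46 counted as the member in the pair of MRPL46 and MRPS11. Of the 10 neighbours 6 were above it. MRPS11, itself a member, was thus counted as a neighbour and lay below the median, at a log2 ratio of −0.45. Of all 76 members 72.4% lay above the median. Across the 10 pairs the Spearman rho of the ratios was 0.14, given as a description. MRPL47 had a ratio of 1.59, whereas NDUFB5, a subunit of respiratory complex I that starts beside it, was at 27.2 FPKM in hnRNPK siRNA and 39.8 FPKM in control siRNA, a ratio of 0.684 (0.624 to 0.749). MRPL27 had a ratio of 1.08 (0.919 to 1.27), whereas its neighbour EME1, a DNA repair endonuclease subunit, had 0.317 (0.266 to 0.376). MRPL46 and MRPS11, which start beside each other and belong to different subunits, had ratios of 1.01 (0.905 to 1.12) and 0.718 (0.649 to 0.794). MRPL18 and TCP1, a subunit of the cytosolic chaperonin, both lay above 1, at 1.13 (1.07 to 1.20) and 1.28 (1.25 to 1.31). The 100 bases before an annotated start of MRPL47, which has more than 1, lie on the side of NDUFB5 and hold the YY1 word read on the other strand and the ETS word. They are shown, with these words in capitals, because the member and its neighbour lie on opposite sides of the control level although they start side by side.
MRPL47 (chr3:179604639-179604738, minus strand): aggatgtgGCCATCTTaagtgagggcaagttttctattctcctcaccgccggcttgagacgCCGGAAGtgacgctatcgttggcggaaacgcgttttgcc

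The mitoribosomal proteins that go by other symbols had ratios like those of the members. All 7 were above the all-gene median, with a median log2 ratio of 0.11. None was past 1.5-fold, where 3.67% of all genes were higher and 14.7% lower. GADD45GIP1, a large subunit protein, was at 144 FPKM in hnRNPK siRNA and 107 FPKM in control siRNA, a ratio of 1.35 (1.28 to 1.43). DAP3, a GTP-binding protein of the small subunit, had a ratio of 1.22 (1.17 to 1.27), and ICT1, a peptidyl-tRNA hydrolase built into the large subunit, 0.970 (0.809 to 1.16).

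The factors that work with the mitochondrial ribosome stood lower than its proteins by their median. Of 16 mitochondrial translation factors, 4 were at least 1.5-fold lower in hnRNPK siRNA, against 14.7% of all genes, and none was 1.5-fold higher, against 3.67%. The median log2 ratio was −0.31, or −0.16 relative to all genes. By summed FPKM the ratio of the factors was 1.05, between 1.04 for the MRPS genes and 1.09 for the MRPL genes. These factors had a median length of 2040.5 bases, against 1182 bases for the members, and the part of length in this contrast was not tested. After centring, 1 of the 16 (6.25%) was 1.5-fold lower, against 8.97% of all genes, and 1 was higher, against 7.22%. As deposited, the 4 were the elongation factor GUF1, the release factor MTRF1L, the recycling factor GFM2 and TACO1, an activator of COX1 translation. GUF1 was at 13.4 FPKM in hnRNPK siRNA and 23.8 FPKM in control siRNA, a ratio of 0.564 (0.530 to 0.600). At the other end SLIRP, which stabilises mitochondrial mRNAs together with LRPPRC, was at 240 FPKM in hnRNPK siRNA and 168 FPKM in control siRNA, a ratio of 1.43. TUFM, the elongation factor that brings tRNAs to the ribosome, had a ratio of 1.27 (1.24 to 1.29).

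Of 28 genes of mitoribosome assembly and rRNA modification, 5 (17.9%) were at least 1.5-fold lower and 1 (3.57%) was 1.5-fold higher, near the 14.7% and 3.67% of all genes. Their median log2 ratio was −0.08, or 0.07 relative to all genes, and their median length was 1780.5 bases. After centring 3 (10.7%) were lower and 2 (7.14%) higher, against 8.97% and 7.22% of all genes. MTG1, a GTPase that assembles the large subunit, was the 1 gene past 2-fold, with a ratio of 0.440 (0.333 to 0.577). AFG3L2, the protease that matures MRPL32, was at 42.1 FPKM in hnRNPK siRNA and 70.9 FPKM in control siRNA, a ratio of 0.595 (0.571 to 0.619), while MRPL32 itself had 1.23. TFB1M, which methylates the small subunit rRNA, had a ratio of 0.575 (0.509 to 0.649). RPUSD3, a pseudouridine synthase of the large subunit rRNA, was the 1 gene at least 1.5-fold higher, with a ratio of 1.71 (1.44 to 2.04).

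Of 19 measured genes of mitochondrial transcription and RNA processing, 2 (10.5%) were at least 1.5-fold lower and 1 (5.26%) higher, against 14.7% and 3.67% of all genes. After centring 1 (5.26%) was lower, against 8.97%. PDE12, which removes poly(A) from mitochondrial RNA, was at 6.10 FPKM in hnRNPK siRNA and 14.5 FPKM in control siRNA, a ratio of 0.421 (0.385 to 0.462), and HSD17B10, a subunit of mitochondrial RNase P, had 1.57 (1.43 to 1.72). Among 9 measured nuclear regulators, GABPB2, a partner of GABPA, was at 3.05 FPKM in hnRNPK siRNA and 5.87 FPKM in control siRNA, a ratio of 0.520 (0.435 to 0.619). GABPA, NRF1 and YY1 had ratios of 1.09 (1.01 to 1.17), 0.903 (0.787 to 1.04) and 0.961 (0.874 to 1.06), all within 1.25-fold of the control level.

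The transcripts of mitochondrial DNA, which the ribosome translates or contains, did not share a ratio. The small and large rRNAs, RNR1 and RNR2, had ratios of 1.20 (1.17 to 1.23) and 1.14 (1.14 to 1.15). Of all 15 mRNAs and rRNAs, ND3, of respiratory complex I, was the 1 (6.67%) at least 1.5-fold higher, against 3.67% of all genes. ND3 was at 5255 FPKM in hnRNPK siRNA and 3233 FPKM in control siRNA, a ratio of 1.63 (1.59 to 1.66). None of the 15 was 1.5-fold lower, against 14.7% of all genes. After centring 1 (6.67%) was higher, against 7.22% of all genes, and none lower, against 8.97%. ND6, of the same complex, had the lowest ratio at 0.732 (0.716 to 0.748). Their median log2 ratio was −0.03, or 0.12 relative to all genes.

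The proteins of the cytosolic ribosome stood further above other genes than those of the mitochondrial one. The median log2 ratio was 0.52 over 43 RPL genes and 0.51 over 30 RPS genes, against 0.14 and 0.01 for the large and small mitochondrial subunits. The interval lay above 1 for 43 of 43 RPL genes and 28 of 30 RPS genes, against 20.8% of all genes. The cytosolic genes were also shorter by recovered length, with medians of 783 and 664 bases. Such lengths can be fractions of the true ones, and RPL7 came out at 93 bases. The cytosolic genes were far more abundant, with a median mean level of 1173 FPKM for RPL genes, against 35.5 FPKM for the 76 members.

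**Figure D4:**
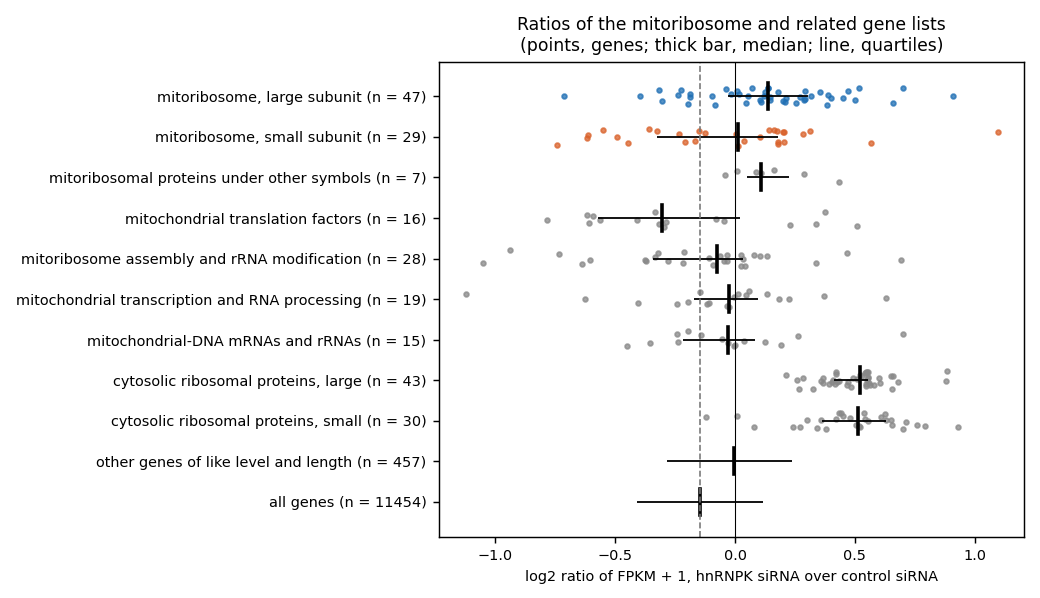
Log2 ratio of FPKM + 1, hnRNPK siRNA over control siRNA, of each gene (points) in the 2 mitoribosome subunits and the related lists, with medians as thick bars, quartiles as lines and a dashed line at the median of all genes. The large subunit median of 0.14 lies above the small subunit median of 0.01, both lie below the cytosolic medians of 0.52 and 0.51, and the translation factors lie lowest at −0.31.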

How the data were processed

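The authors deposited a single table of FPKM values, by gene symbol and library. Bowtie 0.12.2 and the build hg19 are named, per the submitters' processing notes, and Trizol total RNA and standard Illumina libraries, per the labels' protocols. Annotation, counting and strandedness were not given in the sources used here. Of the columns, that for control siRNA was matched by its title's abbreviation and that for hnRNPK siRNA by the letter K, a less direct match.

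Reads and lengths were recovered as the smallest whole numbers that fit, at a relative tolerance of 5e-14 for ratios and 1e-05 bases for lengths. This worked for 99.99% of 19069 genes above 0 and for all 76 members. True reads are these or a common multiple, which would narrow the intervals. Intervals are exact Clopper-Pearson at 95%, and PCR copies are not independent molecules. The recovery and the size rules were tested on simulated data. No test between conditions was possible with 1 library per group. Log2 ratios used a pseudocount of 1 FPKM and genes at or above a mean of 1 FPKM. Alternatives were pseudocounts of 0.1 and 5 FPKM, centring, TMM factors (trims of 30% and 5%), no filter or a mean of 5, subunit by place, list means, and no members with pseudogenes. Genes named are the 10 highest and 10 lowest ratios, the 5 most abundant, those past 2-fold, the S18 paralogs, a fixed panel of known roles and each related list's extremes, and others were chosen after their values were seen. Members and lists were chosen with earlier results of these data known. Python 3.11.15, NumPy 2.4.6, pandas 2.3.3, SciPy 1.17.1 and Matplotlib 3.10.9 were used. Neighbours came from GENCODE 29 by name, and start regions from RefSeq (GRCh38.p14), not the authors' build.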

Additional observations from a re-analysis of the deposited data

How the results depend on the processing

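Counts past a fold depended on the scaling, since centring moves every log2 ratio up by 0.15 and TMM factors by 0.18. Members at least 1.5-fold higher, 4 as deposited, became 9 after centring and 9 with TMM factors, where the share of all genes, 3.67% as deposited, became 7.22% and 8.26%. Members at least 2-fold higher, 1 as deposited, became 2 with either. Members at least 1.5-fold lower, 4 as deposited, became 1 after centring, 0 with TMM factors and 2 when the pseudocount was 5 FPKM, where the share of all genes, 14.7% as deposited, became 8.97%, 8.06% and 5.31%. Without the 41 members that have a pseudogene row, 2 of the 35 left (5.71%) were lower, because fewer genes were counted. The members' median log2 ratio, 0.12, became 0.27 after centring and 0.30 with TMM factors, and its distance from all genes, 0.27, became 0.13 against genes of like level and length. The large minus small difference lay between 0.12 and 0.18 under all alternatives run. Centring and TMM factors shift every gene alike, so they could not change it. Nor could the filters, since the lowest mean of a member was 6.92 FPKM. The difference between proteins with and without bacterial counterpart, −0.06, was −0.0030 on means and −0.022 without members that have a pseudogene row. In all, 5 members turned from negative to positive log2 ratios after centring and 7 with TMM factors. MRPL17, MRPL23 and MRPL36, whose intervals include 1, turned under both. The log2 ratio of MRPL3 turned positive, at 0.064 after centring and 0.096 with TMM factors, as did that of MRPS21, at 0.021 after centring and 0.053 with TMM factors. With TMM factors those of MRPS5 and MRPS9 did too, at 0.028 and 0.0097. No paired analysis was possible because each group has 1 library. Intervals are widest where the recovered reads are fewest. For any member, MRPS24 and MRPL38 among them, those reads may be fractions of the true ones.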

Other observations

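The family has many pseudogenes, which could take reads from their parents. The table lists 96 pseudogene symbols of 41 members, of which 18 are above 0 and 3 have a mean of at least 1 FPKM. MRPS31P5 was highest, at 2.11 FPKM in hnRNPK siRNA and 3.05 FPKM in control siRNA, while its parent MRPS31 was at 66.1 and 57.4 FPKM in those libraries, a ratio of 1.15 (1.09 to 1.22). MRPL35P3 was at 1.23 FPKM in hnRNPK siRNA and 1.79 FPKM in control siRNA, and MRPL45P2 at 1.35 FPKM in hnRNPK siRNA and 0.835 FPKM in control siRNA. In GENCODE 29 exons of 8 members overlap a protein-coding gene on the same strand and those of 17 overlap one on the other strand. Among these are MRPL49 with FAU, a cytosolic ribosomal protein gene at 628 FPKM in hnRNPK siRNA and 456 FPKM in control siRNA, where MRPL49 was at 12.2 FPKM in hnRNPK siRNA and 10.1 FPKM in control siRNA.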
